A study of Homo sapiens with 15 samples.

Results

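The Wnt ligands WNT4, WNT5A and WNT7A, the frizzled receptors FZD2, FZD6 and FZD7, the secreted inhibitors DKK1, DKK3 and SFRP1 and the destruction complex scaffold AXIN2 were followed by gene symbol through a study of p63 in MCF-10A, a human breast epithelial cell line that is immortal but does not form tumours. Of these 10 genes, 9 had an annotated probe set among the 11963 genes measured; AXIN2 was not analysed here. Each gene was read from its probe set with the highest mean over all arrays. The genes were listed by their roles in the pathway and not by their values, although with earlier results of these data known.

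Expression was measured on Affymetrix arrays, as log2 levels, 48 h after retroviral or adenoviral infection. In the knockdown arm, 2 arrays each held cells with shDBD, a short hairpin RNA (shRNA) against the DNA-binding domain that all p63 isoforms share, cells with shTA, an shRNA against the isoforms that carry the transactivating (TA) domain, and cells with the shRNA vector. In the overexpression arm, 3 arrays each held cells given ΔNp63α, an isoform that lacks the TA domain, cells given TAp63γ, an isoform that carries it, and cells given the overexpression vector. All groups were infected cells of 1 line. The labels do not say which virus served which arm, and they call the replicates biological without saying whether each came from its own infection, so a p-value here speaks only of the spread among the arrays. In the main fit that spread was taken over all 15 arrays. Tests in the knockdown arm therefore also rest on the spread in the overexpression arm.

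Wnt proteins are secreted, lipid-modified ligands that bind frizzled receptors together with LRP co-receptors. In the canonical branch this stops the destruction complex from degrading β-catenin, which then acts with TCF/LEF factors on target genes. Other branches, for which WNT5A is the best known ligand, act through planar cell polarity proteins or calcium. DKK1 blocks the LRP co-receptors, whereas secreted frizzled-related proteins such as SFRP1 bind the ligands. In the mouse mammary gland, Wnt4 acts downstream of progesterone in side branching.

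WNT4 and DKK1 were the members with a called change of at least 2-fold from a vector, and their promoters are shown because the results turn on them. The sequences are those of RefSeq on GRCh38.p14, from 250 bases before to 50 bases after the annotated start, written 5′ to 3′ on the strand of the gene. The DKK1 window is chr10:52314031-52314330 on the + strand, and the WNT4 window is chr1:22143048-22143347 on the - strand. Capitals mark a match to the TCF/LEF motif.
DKK1: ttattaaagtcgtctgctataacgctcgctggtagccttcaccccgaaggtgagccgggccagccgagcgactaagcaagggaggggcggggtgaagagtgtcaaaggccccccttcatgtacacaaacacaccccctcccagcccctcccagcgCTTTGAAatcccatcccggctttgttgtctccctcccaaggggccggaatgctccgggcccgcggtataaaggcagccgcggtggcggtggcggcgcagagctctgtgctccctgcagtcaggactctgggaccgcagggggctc
WNT4: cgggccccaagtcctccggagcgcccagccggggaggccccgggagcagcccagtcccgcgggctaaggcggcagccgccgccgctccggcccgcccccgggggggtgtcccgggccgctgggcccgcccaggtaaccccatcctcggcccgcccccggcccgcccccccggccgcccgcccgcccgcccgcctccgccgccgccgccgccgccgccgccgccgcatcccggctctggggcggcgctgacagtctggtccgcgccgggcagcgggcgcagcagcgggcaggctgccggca
Both strands were searched for CTTTGAA and CTTTGAT, which are forms of the TCF/LEF motif, and for the p53 family half-site. The DKK1 window held 1 match to CTTTGAA, on the + strand at position -95 from the start. No match to CTTTGAT or to the half-site was present in either window, and none to CTTTGAA in that of WNT4. Among 35116 promoter windows of this length, 4.43% held CTTTGAA, 2.62% held CTTTGAT and 6.63% held the half-site. These matches describe the letters of the windows and are no measure of binding.

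Some facts of the whole series bear on the values below. Overexpression vector replicate 2 and ΔNp63α replicate 3 correlated least with the other arrays of their groups (r of 0.9943 and 0.9965, and of 0.9925 and 0.9935, over all probe sets). Some of the results below are also given without both, a choice made after the data were seen. Leaving out arrays that stand apart can narrow the spread used in the tests of every group. Smaller adjusted p-values from that fit are therefore no added support. TAp63γ replicate 1 had r of 0.9948 and 0.9963; without it, of the 8 member calls with TAp63γ, that of WNT7A was lost. The 3′ minus 5′ difference of the actin control probe sets was 0.0483 to 0.0854 with shDBD and 0.0028 to 0.2007 with shTA, against -0.0938 to -0.0799 with the shRNA vector. In the overexpression arm it was 0.0054 to 0.1363 with TAp63γ and 0.1226 to 0.2306 with ΔNp63α, against 0.1243 to 0.235 with the vector. These ranges overlapped, but TAp63γ replicates 1 and 3 had the lowest values of the arm. All 7 measured basal mammary markers lay above the 20th percentile on every array. Their levels summed, on a linear scale, to 32248 to 32940 with shDBD and 42116 to 44507 with shTA, against 44332 to 45913 with the shRNA vector. In the other arm they summed to 37921 to 44551 with ΔNp63α and 46176 to 52771 with TAp63γ, against 25310 to 31666 with the overexpression vector. Of the 7, 5 fell with shDBD, 4 rose and 1 fell with ΔNp63α, and 4 rose and 2 fell with TAp63γ. The 9 luminal markers summed to 18434 to 19966 with shDBD and 14784 to 15299 with shTA, against 16408 to 16948 with the shRNA vector, and to 5623 to 6645 with ΔNp63α and 7131 to 7545 with TAp63γ, against 8335 to 9337 with the overexpression vector; 2 rose with shDBD, 2 fell with ΔNp63α, and 1 rose and 1 fell with TAp63γ. The fibroblast markers summed to 2750 to 2810 on a linear scale with shDBD and 1519 to 1548 with the shRNA vector: DCN rose by 2.37 ± 0.13 (log2 difference ± SE), FAP fell by 0.47 ± 0.11 (0.29 and not called without shDBD replicate 1) and the other 8 of 10 did not pass, with LUM and POSTN below the 20th percentile on every array. The immune markers summed to 1677 to 1871 with shDBD and 976 to 1071 with the shRNA vector, with CD14 higher by 1.27 ± 0.11, none of the other 7 passing, and LYZ below the 20th percentile on every array. Of the 8 endothelial markers, PECAM1 (0.41 ± 0.12) and KDR (0.29 ± 0.09) were higher with shDBD, and CDH5, EMCN and TIE1 were below the 20th percentile on every array; both calls were lost with some single arrays left out. The list summed to 622 to 639 with shDBD and 580 to 614 with the shRNA vector. Shifts of the marker lists were not particular to shDBD. With shTA, the fibroblast markers summed to 1710 to 1754 and 1 of them rose, while 1 basal and 1 luminal marker fell. Fibroblast markers summed to 1370 to 1405 with TAp63γ and 1035 to 1140 with ΔNp63α, against 1123 to 1222 with the overexpression vector. Immune markers summed to 626 to 665 with TAp63γ and 686 to 697 with ΔNp63α, against 798 to 854 with that vector. The part of these shifts in the results below was not tested. The p63 transcript itself was not analysed here and gives no check of the labels.

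TAp63γ moved 8 of the 9 members, 4 up and 4 down, where 43.4% of all genes passed in that comparison, 20.5% up and 22.8% down. WNT4, WNT5A, FZD7 and DKK1 were higher, and WNT7A, FZD2, FZD6 and SFRP1 were lower. ΔNp63α moved 4 of 9, with DKK1 and DKK3 higher and FZD6 and SFRP1 lower, against 28.9% of all genes, 12.3% higher and 16.6% lower; DKK3 lay below the 20th percentile on every array, which leaves 3 of the 4 on detected genes. With shDBD, DKK1 was higher and FZD6 and SFRP1 were lower, which made 3 of 9 against 21.3% of all genes, 11.1% higher and 10.2% lower. With shTA, 0 of 9 members passed limma's test, where 2.29% of all genes did, 1.44% higher and 0.853% lower; 3 members had an unadjusted p under 0.05, and 1 passed when the knockdown arm was fitted on its own arrays. The median log2 difference of the members was -0.09 with shDBD, 0.00 with shTA, 0.12 with ΔNp63α and -0.03 with TAp63γ, and the medians of all genes lay between -0.02 and 0.00. Changes of at least 2-fold were called for 0 members with shDBD or shTA, for DKK1 with ΔNp63α and for WNT4 and DKK1 with TAp63γ, where the shares of all genes were 2.83%, 0.251%, 2.73% and 8.4%.

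The arrays of the treated group and its vector did not overlap for 7 members with shDBD and 6 with shTA, where 61.7% and 50.7% of all genes did not overlap. They did not overlap for 3 members with ΔNp63α and 8 with TAp63γ, where the shares of all genes were 36.5% and 49.9%. Every call below is from limma's moderated test with Benjamini-Hochberg adjustment over all 11963 genes of the comparison at 0.05. Levels under the 20th percentile of an array were not taken as shown to exceed background.

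**Figure D1:**
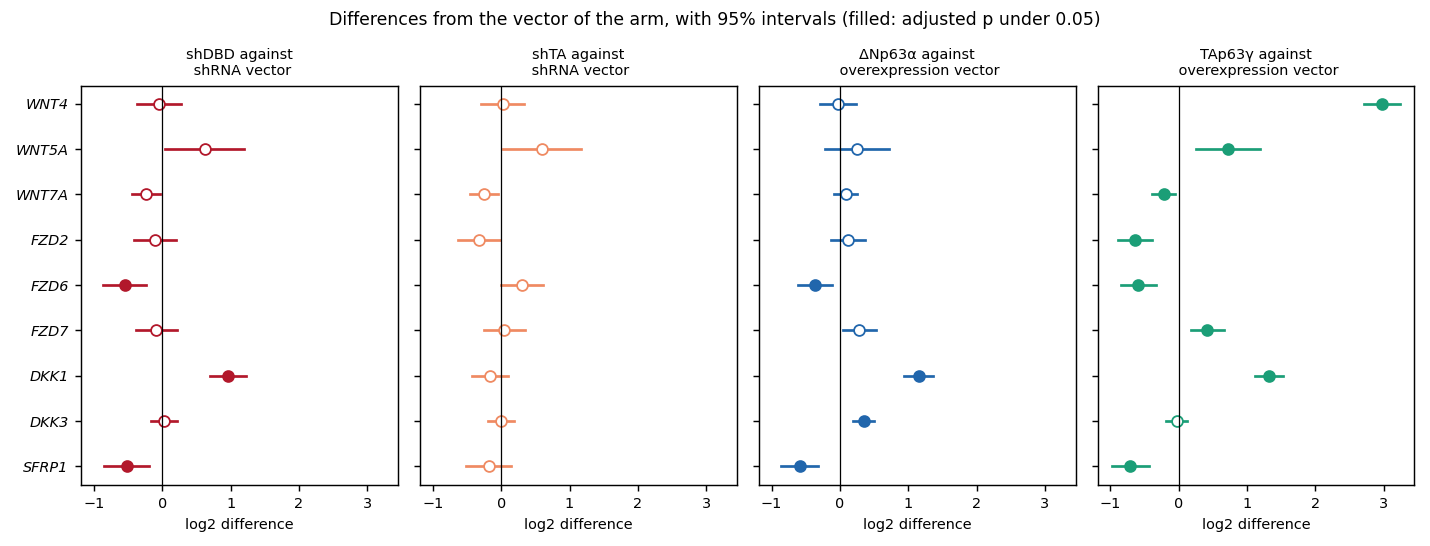
Log2 difference of each member from the vector of its arm (horizontal axis, 0 at the black line), in 1 panel per treatment; points are fitted differences, bars are 95% intervals and filled points have an adjusted p under 0.05. WNT4 lay at 2.98 with TAp63γ and near 0 with the other treatments, and DKK1 was right of 0 in 3 of the 4 panels.

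WNT4, a ligand of mammary branching, was the member that moved most, and only TAp63γ among the 4 treatments moved it past the threshold. Its level was 8.09, 7.77 and 7.89 on the TAp63γ arrays, against 5.22, 4.95 and 4.65 on those of the overexpression vector. It was 5.02, 4.91 and 4.82 with ΔNp63α. The TAp63γ arrays thus stood far above both other groups, and those of ΔNp63α lay inside the range of the vector. Placed among all probe sets of its array, WNT4 stood at percentile 61.4 to 65.9 with TAp63γ, at 15.4 to 18.5 with ΔNp63α and at 13.3 to 22.1 with the vector.

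The difference of TAp63γ from the vector was 2.98 ± 0.12 (log2, SE, n = 3 each, limma adjusted p = 2.8e-11), or 7.88-fold as measured. On 2 of the 3 vector arrays WNT4 lay below the 20th percentile, and with all values floored there TAp63γ was at least 6.88-fold higher. ΔNp63α differed from the vector by -0.03 ± 0.12 (adjusted p = 0.908), with a 95% interval of -0.29 to 0.23. ΔNp63α was lower than TAp63γ by 3.01 ± 0.12 on the log2 scale (adjusted p = 9.19e-11), and because all 3 ΔNp63α arrays were below the 20th percentile, the floored value gives TAp63γ as at least 6.96-fold higher. In bulk RNA, more cells expressing a gene and more transcript per cell cannot be told apart, nor can fewer cells and less transcript; this holds for every level here.

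In the knockdown arm WNT4 stayed at the edge of detection. It was 5.43 and 5.23 with shDBD, 5.32 and 5.49 with shTA and 5.35 and 5.43 with the shRNA vector, with 1 of 2 arrays of each group below the 20th percentile. The groups overlapped, and the differences were -0.06 ± 0.15 and 0.02 ± 0.15 for shDBD and shTA. A decrease could not have been measured well from this level.

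WNT5A, the main non-canonical ligand, was highest with TAp63γ in its arm, at 8.13, 8.80 and 8.42, against 8.10, 7.28 and 7.82 with the vector. Those groups did not overlap, although the lowest TAp63γ array and the highest vector array lay side by side. It rose by 0.72 ± 0.22 (adjusted p = 0.0145), or 1.64-fold; the call was lost without overexpression vector replicate 2 (0.49, adjusted p = 0.0752) and without TAp63γ replicate 2 (0.54, adjusted p = 0.0766). ΔNp63α gave 7.59, 7.89 and 8.46, which overlapped both other groups. Its difference from the vector was 0.25 ± 0.22 (adjusted p = 0.461), and from TAp63γ -0.47 ± 0.22 (adjusted p = 0.109). With both arrays that stood apart left out, ΔNp63α was lower than TAp63γ by 0.71 (adjusted p = 0.00146), its difference from the vector was -0.22 (adjusted p = 0.413), and the rise with TAp63γ was 0.49 (adjusted p = 0.0144). That rise was also 0.49 without overexpression vector replicate 2 alone. The smaller adjusted p thus came with the changed fit and not with a larger difference.

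The knockdown values of WNT5A were 7.09 and 7.26 with shDBD and 7.06 and 7.25 with shTA, against 6.51 and 6.61 with the shRNA vector. Both shRNAs thus lay above the vector on every array and beside each other. The differences were 0.62 ± 0.27 for shDBD (adjusted p = 0.129) and 0.60 ± 0.27 for shTA (adjusted p = 0.353), and neither passed. When the knockdown arm was fitted on its own 6 arrays, both did, with adjusted p of 0.000402 and 0.00345, with the spread of WNT5A in the knockdown arm alone in the fit. The group SDs of WNT5A were 0.08 to 0.13 in that arm. They were 0.33 to 0.45 in the overexpression arm, which the main fit also used. shDBD differed from shTA by 0.02 ± 0.27.

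WNT7A, a ligand known from limb and uterine development in the mouse, moved little anywhere. It lay at 6.07, 6.05 and 6.18 with TAp63γ, 6.28, 6.47 and 6.46 with ΔNp63α and 6.35, 6.28 and 6.32 with the overexpression vector. It fell by 0.22 ± 0.08 with TAp63γ (adjusted p = 0.0346), and this call was lost without vector replicate 1 or 3 or TAp63γ replicate 1 or 2 (adjusted p 0.0792 to 0.0987). ΔNp63α stood above TAp63γ by 0.30 ± 0.08 (adjusted p = 0.00604), without overlap. Both shRNAs gave a difference of -0.25 ± 0.10 from the shRNA vector, with adjusted p of 0.0863 for shDBD and 0.232 for shTA; without shRNA vector replicate 2, shDBD passed (adjusted p = 0.0253).

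**Figure D2:**
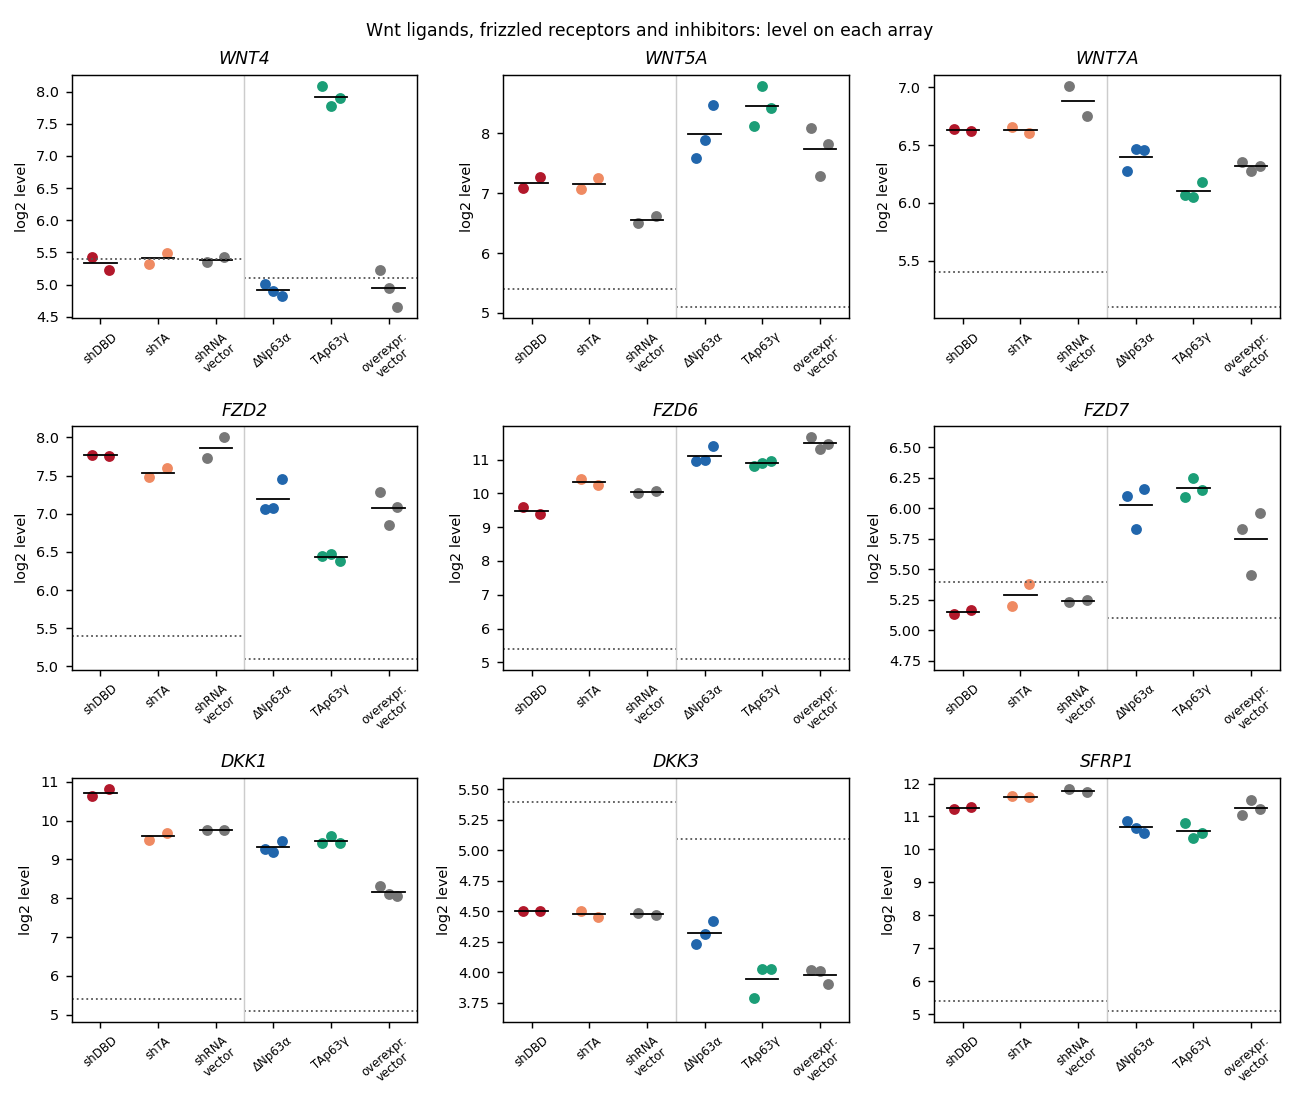
Log2 level of each member on each array (vertical axis, scaled per gene), with treated groups left of the vector of their arm, group means as black bars and the mean 20th percentile of the arm as a dotted line; the grey line parts the knockdown arm from the overexpression arm, which were treated as normalized separately. WNT4 was above 7.7 on the TAp63γ arrays alone, and DKK3 lay below the dotted line throughout.

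The frizzled receptors fell apart by gene. FZD2 passed as lower with TAp63γ, FZD6 was lower with shDBD, ΔNp63α and TAp63γ, and FZD7 was higher with TAp63γ. FZD2 read 6.45, 6.47 and 6.38 with TAp63γ, 7.06, 7.08 and 7.45 with ΔNp63α and 7.28, 6.86 and 7.08 with the overexpression vector. The TAp63γ arrays lay together below all others of the arm.

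FZD2 fell by 0.64 ± 0.12 with TAp63γ (adjusted p = 0.000325), or 1.56-fold. ΔNp63α stood 0.76 ± 0.12 above TAp63γ (adjusted p = 9.55e-05) and differed from the vector by 0.12 ± 0.12 (adjusted p = 0.515). Without both arrays that stood apart, the first difference was 0.63 (adjusted p = 4.35e-05) and the second was -0.12 (adjusted p = 0.48). In the knockdown arm FZD2 was 7.77 and 7.76 with shDBD, 7.48 and 7.60 with shTA and 7.73 and 7.998 with the shRNA vector. The shTA arrays were the lowest, at -0.33 ± 0.14 from the vector, which did not pass (adjusted p = 0.332).

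FZD6, a receptor known for its part in planar polarity of skin and hair, showed the clearest split between the shRNAs among the receptors. It was 9.59 and 9.38 with shDBD and 10.43 and 10.26 with shTA, against 10.002 and 10.08 with the shRNA vector. The shDBD arrays lay below and the shTA arrays above the vector, without overlap. FZD6 fell by 0.55 ± 0.15 with shDBD (adjusted p = 0.0124), or 1.47-fold, and shTA differed from the vector by 0.30 ± 0.15 (adjusted p = 0.401). shDBD was lower than shTA by 0.86 ± 0.15 on the log2 scale (adjusted p = 0.0006), or 1.81-fold. The call against the vector did not survive leaving out shRNA vector replicate 1 (adjusted p = 0.0514), shRNA vector replicate 2 (0.0882) or shDBD replicate 2 (0.125).

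In the overexpression arm FZD6 was 10.80, 10.90 and 10.97 with TAp63γ, 10.95, 10.97 and 11.41 with ΔNp63α and 11.65, 11.31 and 11.47 with the vector. ΔNp63α replicate 3 lay among the vector arrays, and the other ΔNp63α arrays lay beside those of TAp63γ. FZD6 fell by 0.59 ± 0.12 with TAp63γ (adjusted p = 0.000762) and by 0.37 ± 0.12 with ΔNp63α (adjusted p = 0.0312). The ΔNp63α call was lost with each arm fitted alone (adjusted p = 0.0671), under cyclic loess (0.108) and without vector replicate 1 (0.135) or 3 (0.0741) or ΔNp63α replicate 1 (0.126) or 2 (0.124). With both arrays that stood apart left out, the fall with ΔNp63α was 0.60 (adjusted p = 0.000106), more than 1.5 times as large. The direct difference of ΔNp63α from TAp63γ was 0.22 ± 0.12 (adjusted p = 0.161).

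FZD7, a receptor described in mouse mammary stem cells, was 6.09, 6.25 and 6.15 with TAp63γ, 6.10, 5.83 and 6.16 with ΔNp63α and 5.83, 5.45 and 5.96 with the overexpression vector. It rose by 0.42 ± 0.11 with TAp63γ (adjusted p = 0.00707), or 1.33-fold, and by 0.27 without overexpression vector replicate 2, alone (adjusted p = 0.0367) or together with ΔNp63α replicate 3 (0.0263). ΔNp63α differed from the vector by 0.28 ± 0.11 (adjusted p = 0.0777), and passed without vector replicate 3 (0.0226) or ΔNp63α replicate 2 (0.0284). Without both arrays that stood apart that difference was 0.07 (adjusted p = 0.70). The direct difference of ΔNp63α from TAp63γ was -0.13 ± 0.11 (adjusted p = 0.39). In the knockdown arm this probe set lay below the 20th percentile on all 6 arrays, and the other FZD7 probe set did so on 1 of 2 arrays in each group; neither passed there.

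Among the inhibitors, DKK1 rose with shDBD, with ΔNp63α and with TAp63γ, by about 2-fold or more in both p63 overexpressions, and was not moved past the threshold by shTA. It read 10.63 and 10.81 with shDBD and 9.50 and 9.69 with shTA, against 9.76 and 9.75 with the shRNA vector. The shDBD arrays stood above all others of the arm, and the shTA arrays lay just under the vector. DKK1 rose by 0.96 ± 0.12 with shDBD (n = 2 each, limma adjusted p = 3.14e-05), or 1.95-fold, and the difference for shTA was -0.16 ± 0.12 (adjusted p = 0.656). shDBD exceeded shTA by 1.12 ± 0.12 (adjusted p = 8.6e-06), or 2.18-fold.

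In the overexpression arm DKK1 was 9.26, 9.20 and 9.48 with ΔNp63α and 9.41, 9.61 and 9.42 with TAp63γ, against 8.31, 8.11 and 8.06 with the vector. Every array with either isoform lay above every vector array, and the isoforms overlapped. The rise was 1.15 ± 0.10 with ΔNp63α (adjusted p = 3.56e-07), or 2.23-fold, and 1.32 ± 0.10 with TAp63γ (adjusted p = 2.8e-08), or 2.50-fold. The isoforms differed by -0.17 ± 0.10 (adjusted p = 0.201, 95% interval -0.38 to 0.04); without both arrays that stood apart the difference was -0.25 (adjusted p = 0.0463). All 3 rises passed under every alternative tried.

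SFRP1, which binds Wnt ligands outside the cell, fell in the same 3 comparisons in which DKK1 rose. It read 11.22 and 11.30 with shDBD and 11.62 and 11.58 with shTA, against 11.82 and 11.74 with the shRNA vector. The shDBD arrays were lowest and the shTA arrays in between, without overlap. SFRP1 fell by 0.52 ± 0.15 with shDBD (adjusted p = 0.0234), or 1.44-fold; the call was lost when any 1 array of either group was left out (adjusted p 0.075 to 0.142). shTA differed from the vector by -0.18 ± 0.15 (adjusted p = 0.705), and shDBD from shTA by -0.34 ± 0.15 (adjusted p = 0.162). The difference of shDBD from shTA passed with each arm fitted on its own arrays (adjusted p = 0.00145). It also passed with the mean over the probe sets (-0.37, adjusted p = 0.023).

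With overexpression, SFRP1 was 10.87, 10.64 and 10.50 with ΔNp63α and 10.81, 10.36 and 10.49 with TAp63γ, against 11.05, 11.51 and 11.22 with the vector. Both isoforms lay below the vector on all arrays, and overlapped each other. The fall was 0.59 ± 0.13 with ΔNp63α (adjusted p = 0.00217) and 0.71 ± 0.13 with TAp63γ (adjusted p = 0.000238). Without both arrays that stood apart it was 0.38 with ΔNp63α (adjusted p = 0.021), smaller by more than 1.5 times. The isoforms differed by 0.12 ± 0.13 (adjusted p = 0.495).

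SFRP1 had 3 probe sets, and all 3 were called lower with shDBD, ΔNp63α and TAp63γ when every probe set was tested. The other 2 probe sets gave -0.59 and -0.74 with shDBD, -0.65 and -0.77 with ΔNp63α and -0.72 and -0.95 with TAp63γ. These 2 were also lower with shDBD than with shTA (-0.36, adjusted p = 0.0198, and -0.41, adjusted p = 0.0145), where the probe set with the highest mean did not pass. The second probe set of WNT5A was called higher with TAp63γ (0.53, adjusted p = 0.0252), and that of FZD7 was not (0.27, adjusted p = 0.0804).

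DKK3, a relative of DKK1, was not shown to be above background: its 5 probe sets lay below the 20th percentile on all 15 arrays. The probe set used read 4.23, 4.31 and 4.42 with ΔNp63α, 3.79, 4.03 and 4.03 with TAp63γ and 4.02, 4.01 and 3.90 with the vector. It passed as higher with ΔNp63α (0.35 ± 0.07, adjusted p = 0.00175), while the other 4 probe sets gave -0.04 to 0.06 and did not pass. The call was lost with values floored at the 20th percentile (0.02, adjusted p = 0.324) and with the mean over the probe sets (0.07, adjusted p = 0.337). ΔNp63α also passed against TAp63γ (0.37 ± 0.07, adjusted p = 0.000623), and that call was lost with the mean over the probe sets (0.10, adjusted p = 0.0997). No fold is given at this level.

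**Figure D3:**
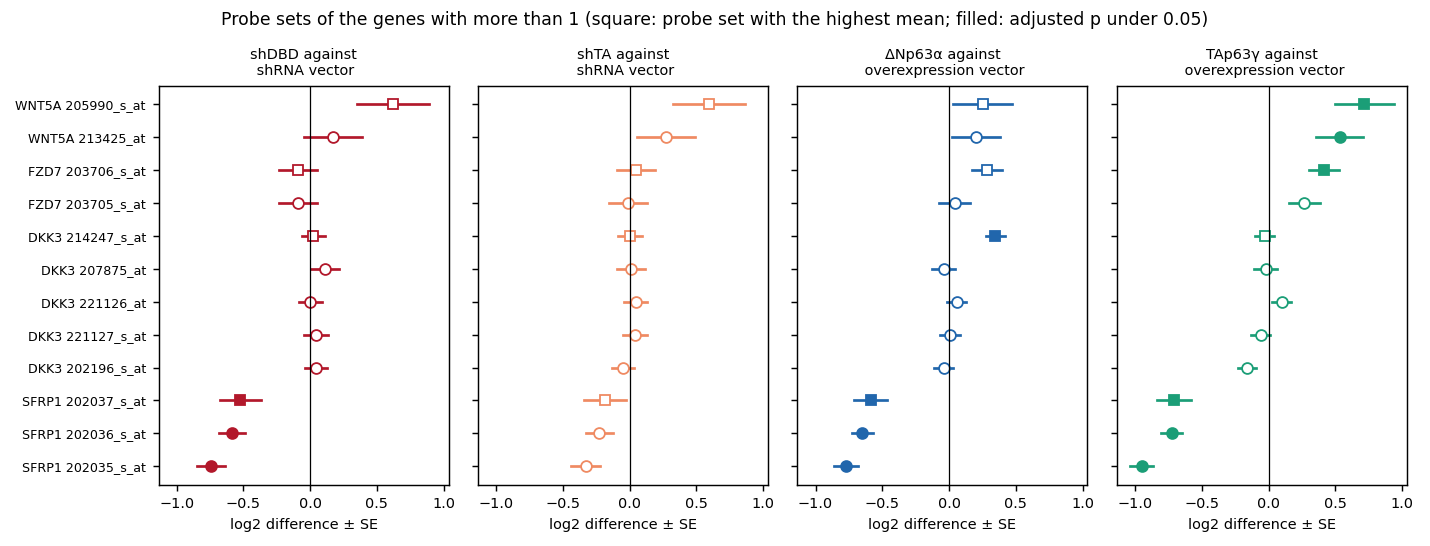
Log2 difference ± SE from the vector of the arm for each probe set of the 4 members with more than 1; squares are the probe sets with the highest mean, circles the others, and filled symbols have an adjusted p under 0.05. The 3 SFRP1 probe sets lay left of 0 together, whereas 1 of 5 DKK3 probe sets stood apart with ΔNp63α.

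Set side by side over the 4 comparisons with a vector, DKK1 passed as higher, and FZD6 and SFRP1 as lower, with shDBD, ΔNp63α and TAp63γ. WNT4, WNT5A, WNT7A, FZD2 and FZD7 passed with TAp63γ alone, and DKK3 with ΔNp63α alone. For WNT5A and FZD7, the direct difference between ΔNp63α and TAp63γ did not pass. ΔNp63α and TAp63γ share the overexpression vector arrays, and shDBD and shTA share the shRNA vector arrays, so these values are not independent within an arm and no agreement between them is read. In the direct comparisons, ΔNp63α and TAp63γ differed in 4 of 9 members, where 39.8% of all genes passed, 19.2% higher with ΔNp63α and 20.6% lower. WNT4 was lower with ΔNp63α, and WNT7A, FZD2 and DKK3 were higher. Of these, DKK3 was not shown to be above background on any array, and its call was lost with the mean over its probe sets. shDBD and shTA differed in 2 of 9, DKK1 and FZD6, where 18.4% of all genes passed, 9.14% higher with shDBD and 9.23% lower.

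The genes most like WNT4 and DKK1 were found by the root mean square difference of log2 levels, each centred on the mean of its arm, over all 15 arrays. For WNT4 they were SHROOM2 (0.196), an actin-binding protein, and LBH (0.20), a transcription cofactor of limb bud and heart that is also known in basal mammary cells, where the spread of WNT4 itself was 1.10. SHROOM2 rose by 3.11 ± 0.09 and LBH by 2.86 ± 0.10 with TAp63γ, and neither passed with ΔNp63α (0.15 ± 0.09 and 0.25 ± 0.10). SHROOM2 passed as lower with shDBD than with the shRNA vector (-0.32 ± 0.11, adjusted p = 0.0418, lost under 11 of 24 alternatives). It was also lower with shDBD than with shTA (-0.50 ± 0.11, adjusted p = 0.00323). WNT4 did not pass there, but it lay at the edge of detection, where a fall could not have been measured well. For DKK1 they were ADM (0.185), the vasodilator peptide adrenomedullin, and MYD88 (0.188), the adaptor of Toll-like receptors, where the spread of DKK1 was 0.561. ADM rose by 0.50 ± 0.12 with shDBD, 1.39 ± 0.09 with ΔNp63α and 1.70 ± 0.09 with TAp63γ. MYD88 rose by 0.52 ± 0.11, 1.05 ± 0.09 and 1.33 ± 0.09 in the same order. ADM and MYD88 were both lower with ΔNp63α than with TAp63γ past the threshold, by 0.31 ± 0.09 and 0.28 ± 0.09. DKK1 lay the same way, at -0.17 ± 0.10, without passing, and the genes were not tested against each other. The ADM call was lost under cyclic loess (adjusted p = 0.0645) and without TAp63γ replicate 2 (0.0631). The MYD88 call was lost without TAp63γ replicate 1 (0.07). The ADM rise with shDBD did not pass without shDBD replicate 2 (adjusted p = 0.0639). The likeness was selected over all genes and is a description.

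The rest of the pathway was read from lists of its parts. Over all genes, the shares called were 11.1% higher and 10.2% lower with shDBD, 1.44% and 0.853% with shTA, 12.3% and 16.6% with ΔNp63α and 20.5% and 22.8% with TAp63γ, and counts in the lists are to be read against these. Of the other Wnt ligands and their secretion factors, 0 of 11 measured passed limma's test against a vector with any of the 4 treatments, with 1, 1, 0 and 1 at an unadjusted p under 0.05 for shDBD, shTA, ΔNp63α and TAp63γ. Of the other receptors and co-receptors, 2 of 12 rose with shDBD, 1 rose with shTA, 2 fell with ΔNp63α and 3 fell with TAp63γ. ROR1, a receptor tyrosine kinase for WNT5A, was 8.28 and 8.30 with shDBD, against 7.01 and 7.10 with the shRNA vector, a rise of 1.23 ± 0.13 (adjusted p = 4.93e-06). It fell by 0.51 ± 0.11 with ΔNp63α (adjusted p = 0.00177). As the mean over its probe sets, ROR1 rose by 0.67 with shDBD and fell by 0.30 with ΔNp63α, and both passed. FZD3, another frizzled receptor, fell by 0.78 ± 0.11 with TAp63γ (adjusted p = 1.9e-05) and rose by 0.53 ± 0.13 with shTA (adjusted p = 0.0475), a call lost under 15 of 24 alternatives. Of the other secreted inhibitors and receptor regulators, 1 of 13 fell with shDBD, 0 passed with shTA or ΔNp63α and 2 fell with TAp63γ; 0 and 2 had an unadjusted p under 0.05 with shTA and ΔNp63α. TPBG, a membrane protein known from zebrafish to dampen canonical signalling, fell by 0.41 ± 0.09 with shDBD, and LGR4, an R-spondin receptor, fell by 0.90 ± 0.25 with TAp63γ. The LGR4 call was lost without overexpression vector replicate 1 (-0.64, adjusted p = 0.0518).

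Of 30 measured genes of the cytoplasmic and nuclear β-catenin pathway, 3 rose and 3 fell with shDBD, 0 passed with shTA, 3 rose and 4 fell with ΔNp63α, and 8 rose and 9 fell with TAp63γ. With shTA, 2 had an unadjusted p under 0.05. The share called was 20% with shDBD and 23.3% with ΔNp63α, under the 21.3% and 28.9% of all genes, and 56.7% with TAp63γ against 43.4%. The Groucho co-repressors moved apart with shDBD, as TLE3 fell by 0.57 ± 0.11 and TLE1 rose by 0.43 ± 0.11, although the rise did not pass with replicate 2 of the shRNA vector (adjusted p = 0.0899) or of shDBD (0.0841) left out. With ΔNp63α, the co-repressor TLE4 rose by 1.07 ± 0.12 and GSK3B, the kinase that marks β-catenin for degradation, fell by 0.67 ± 0.15, or by 0.38 (adjusted p = 0.0226) without both arrays that stood apart. With TAp63γ, CTNNB1, which encodes β-catenin, rose by 0.71 ± 0.18 and the scaffold APC fell by 0.75 ± 0.15, or by 0.44 as the mean over its probe sets. CTNNB1 read 10.76, 11.52 and 10.87 with TAp63γ, against 10.56, 10.06 and 10.38 with the vector, so the groups stood close together at their edges.

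Of 16 genes described as β-catenin targets, 1 rose and 7 fell with shDBD, where 11.1% of all genes were called higher and 10.2% lower, and the median of the list was -0.26 against 0.00 for all genes. With shTA 1 rose, with ΔNp63α 3 rose and 4 fell, and with TAp63γ 7 rose and 3 fell, with list medians of -0.03, 0.15 and 0.09. The share called was 43.8% with ΔNp63α and 62.5% with TAp63γ, against 28.9% and 43.4% of all genes. BIRC5, the mitotic survival factor survivin, was 8.20 and 8.28 with shDBD, against 10.02 and 10.13 with the shRNA vector, a fall of 1.83 ± 0.12 (adjusted p = 5.07e-08). MMP7, the secreted protease matrilysin, rose by 1.42 ± 0.14 with shDBD and by 0.82 ± 0.14 with shTA, the second call being lost without shRNA vector replicate 1 (0.69, adjusted p = 0.0859). SOX9, a transcription factor of progenitor cells, was 7.83, 7.81 and 7.81 with ΔNp63α and 8.81, 8.52 and 8.81 with TAp63γ, against 5.62, 6.08 and 5.92 with the overexpression vector. It rose by 1.94 ± 0.11 with ΔNp63α (adjusted p = 3.24e-09) and by 2.84 ± 0.11 with TAp63γ (adjusted p = 1.46e-11). BAMBI, a decoy receptor of TGF-beta signalling, fell by 0.49 ± 0.09 with ΔNp63α, and the matrix proteoglycan VCAN fell by 1.11 ± 0.08 with TAp63γ. These genes have other regulators, and a count of them is no measure of β-catenin activity.

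Of 15 planar cell polarity genes, 1 rose and 4 fell with shDBD, 0 passed with shTA, 1 rose and 5 fell with ΔNp63α, and 3 rose and 7 fell with TAp63γ. The share called was 33.3% with shDBD, 40% with ΔNp63α and 66.7% with TAp63γ, against 21.3%, 28.9% and 43.4% of all genes; with shDBD the count was 1 without shRNA vector replicate 2 or shDBD replicate 2. With shTA, 3 had an unadjusted p under 0.05. The membrane protein VANGL1 fell by 0.73 ± 0.15 with shDBD. INVS, which encodes inversin, rose by 0.51 ± 0.15 with shDBD and fell by 0.69 ± 0.13 with ΔNp63α; the rise was lost with the mean over its probe sets (0.13, adjusted p = 0.218) and without any 1 array of either group. The fall with ΔNp63α was 0.24 with the mean over the probe sets and 0.45 without both arrays that stood apart, and both passed. DAAM1, a formin that binds dishevelled, rose by 1.30 ± 0.16 with ΔNp63α, at 9.55, 9.78 and 10.06 against 8.77, 8.21 and 8.49 with the vector. With TAp63γ, CELSR2, an atypical cadherin, rose by 1.66 ± 0.08, at 9.58, 9.30 and 9.54 against 7.78, 7.88 and 7.79, and the kinase ROCK1 fell by 0.96 ± 0.18.

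**Figure D4:**
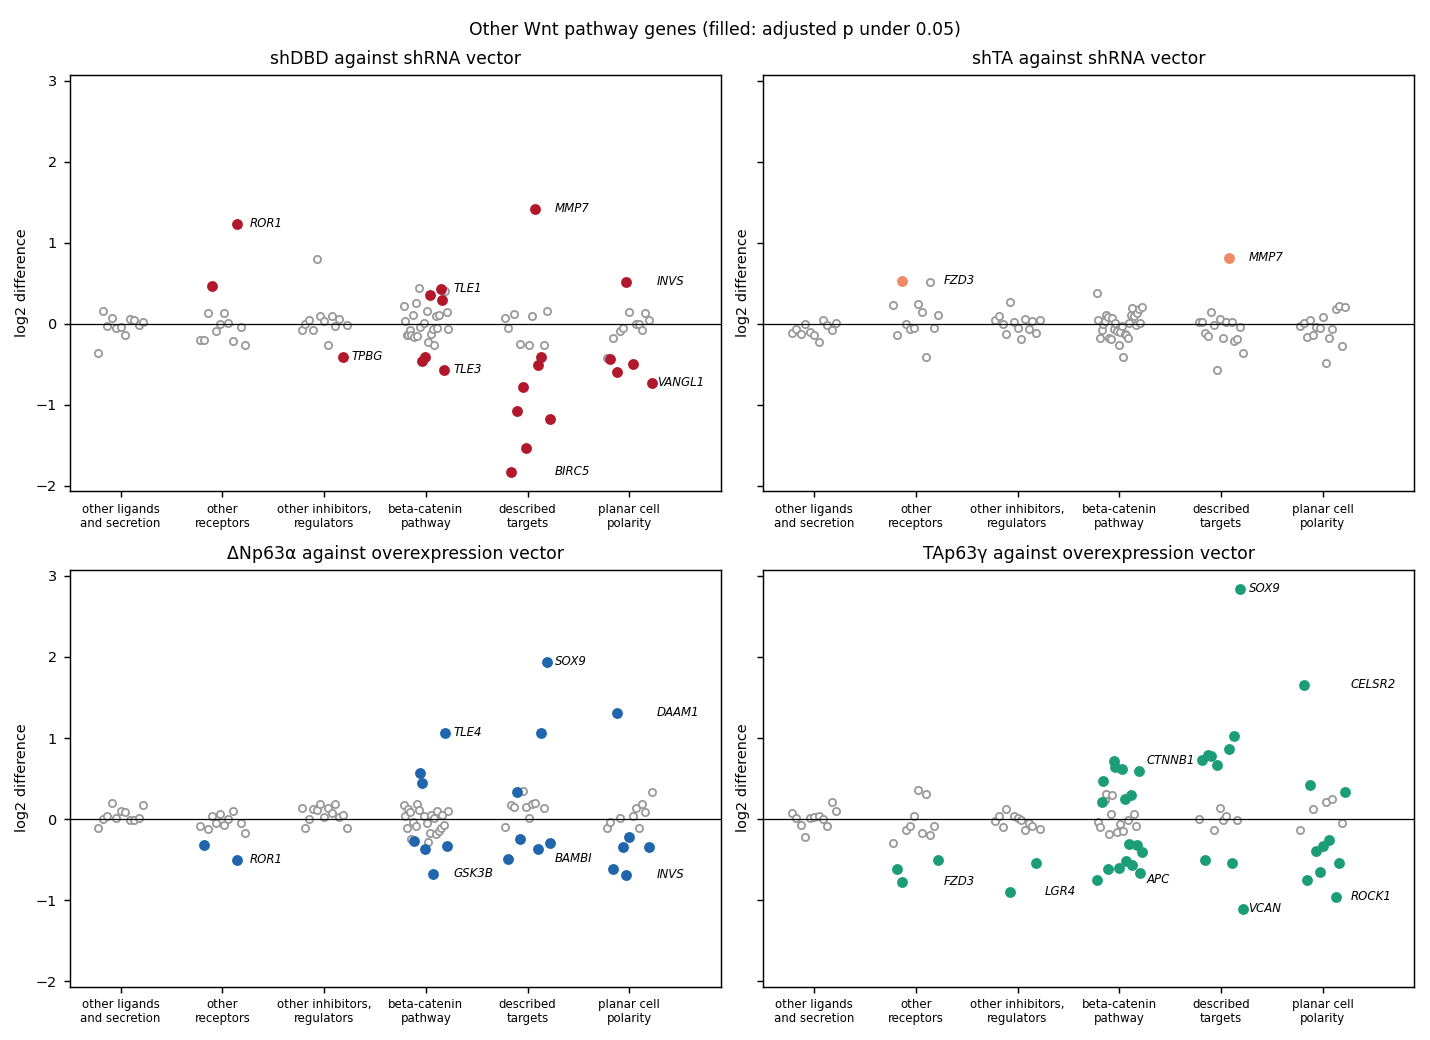
Log2 difference from the vector of the arm (vertical axis) for each measured gene of 6 Wnt pathway lists, in 1 panel per treatment; filled points have an adjusted p under 0.05, and the named genes are those of each list with the largest called rise and fall. BIRC5 lay at -1.83 with shDBD, and SOX9 at 2.84 with TAp63γ.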

How the data were processed

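Total RNA was hybridised to 15 Affymetrix arrays of 22277 probe sets. The deposited values are log2 levels per probe set; the submitters' processing notes name RMA, and the sources used here give neither its version nor whether the arms were processed as 1 batch. Because RMA gives arrays the same distribution, a shift of most transcripts is lost, and small levels have compressed differences. Array medians differed between the arms (7.19 to 7.21 in the knockdown arm, 6.95 to 6.98 in the overexpression arm), so treatments were compared within an arm. Precision is limited by how many arrays each group has. Some values in the overexpression arm were identical on several arrays of a group. TLE4 was 7.6536 on all 3 TAp63γ arrays, and SOX9 was 7.80998 on ΔNp63α replicates 2 and 3. Such ties add no spread to the SE of a gene, and their source was not tested.

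Probe sets with 1 symbol in the platform annotation (19064; 1043 had several and 2108 none, and 62 were controls) gave 11963 genes, each read from the probe set with the highest mean. limma 3.58.1 in R 4.3.3 fitted group means to all 15 arrays (variance trend on the mean level, 9 residual and 5.87 prior degrees of freedom); tests were two-sided, adjusted by Benjamini-Hochberg in each of 6 comparisons, and called at 0.05. The script was tested on simulated data. All members are described; from each pathway list the text names the called genes with the largest rise and fall against each vector, and for each member with a called change of at least 2-fold the 2 genes most like it. DCN, FAP, CD14, LUM, POSTN, LYZ, PECAM1, KDR, CDH5, EMCN and TIE1 were named after their values were seen. Promoter entries were found for 4 members. The members, lists and tests were chosen with earlier results of these data known. Alternatives covered the fit, the normalization, filters, the choice of probe set and each array left out; leaving out 2 arrays together was chosen after seeing the data.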

Additional observations from a re-analysis of the deposited data

How the results depend on the processing

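Of 54 values of members, 40 kept their side of the threshold under every alternative and 0 called values changed direction. Of 21 called values, 14 passed under every alternative and 7 were lost under at least 1. A further 7 uncalled values passed under at least 1. Of 46 called values of other named genes, 34 passed under every alternative. The members called with shDBD numbered 3, and 1 to 3 with 1 array left out; the lowest count came without shRNA vector replicate 1 and without shDBD replicate 2, where DKK1 alone passed. With shTA 0 passed, 1 passed with each arm fitted on its own arrays, and 0 with any 1 array left out. With 1 array left out, the counts were 6 to 8 with TAp63γ, 3 to 4 with ΔNp63α, 2 for shDBD against shTA and 4 to 5 for ΔNp63α against TAp63γ. Over all genes, the call count with shTA was 274, against 1064 with each arm fitted on its own arrays and 150 with the replicate block; it was 87 without shTA replicate 2, 131 without shTA replicate 1, 90 and 95 without shRNA vector replicate 1 and 2, and 472 without ΔNp63α replicate 3. The count with shDBD was 2543, and 1650 without shRNA vector replicate 1. For shDBD against shTA it was 2197, and 3359 with each arm fitted alone, 1348 without shDBD replicate 1 and 1463 without shTA replicate 2. No alternative moved the 3 counts of the overexpression arm by over 1.5 times. Among the list counts, planar cell polarity with shDBD was 5, with 3 under the replicate block and 1 without shRNA vector replicate 2 or shDBD replicate 2; the β-catenin pathway with shDBD was 6, with 10 when each arm was fitted alone and 3 without shDBD replicate 2; that pathway with TAp63γ was 17, with 11 without TAp63γ replicate 1; receptors with shTA were 1, with 0 to 3, and with ΔNp63α 2, with 1 to 3; receptors with TAp63γ were 3, with 6 when 2 arrays were left out together. Counts of 0 to 2 in the lists moved by 1 or 2 under some alternatives. ΔNp63α replicate 3 is no part of the shTA comparison and enters that count only through the spread shared over all arrays. The causes of the other shifts were not tested.

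Whether the replicate numbers pair the arrays was not settled. Deviations from the group means of same-numbered arrays had correlations of 0.0014 to 0.069 for knockdown and of -0.628 to 0.476 for overexpression. Arrays with different numbers were not set against each other, and with 2 arrays a group the deviations mirror each other. With the replicate block, the members called were 3 with shDBD, 0 with shTA, 4 with ΔNp63α, 8 with TAp63γ, 2 for shDBD against shTA and 4 for ΔNp63α against TAp63γ. Levels near the 20th percentile limit WNT4, FZD7 and DKK3.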

Other observations

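Some values cross the arms, whose arrays were treated as normalized separately, and so are no comparison of conditions. Between the vectors, DKK1 averaged 8.16 ± 0.13 with the overexpression vector and 9.76 ± 0.01 with the shRNA vector (SD, n = 3 and n = 2). The second probe set of WNT5A was below the 20th percentile on all 6 knockdown arrays and on 0 of 9 overexpression arrays. LGR4, the R-spondin receptor, read 8.60, 7.55 and 8.13 on the overexpression vector arrays and 5.75 and 6.12 on those of the shRNA vector. SOX9 read 5.62, 6.08 and 5.92 with the overexpression vector and 9.31 and 9.45 with the shRNA vector.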
